A study of Mus musculus with 6 samples.

Results

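Collagen genes encode the chains of the triple-helical proteins that make up most of the body's extracellular matrix. They were taken as every gene of the deposited read count table whose symbol reads Col, digits, a, digits, which gave 43 of 33924 listed genes. Of these, 30 held at least 10 reads in at least 3 of the 6 libraries and are described here, and 13 lay below that minimum. The libraries came from mouse bone marrow depleted of lineage-marked cells with EasySep magnetic beads, with RNA taken up in TRIzol; 3 were labelled Stag2KO and 3 Stag2WT. The Stag2 product belongs to cohesin, a ring-shaped complex that links sister chromatids and extrudes chromatin loops. For these 6 libraries the labels name no strain, age, driver of the deletion or pooling of mice, and no allele or agent shared by both groups. Whether each library is from its own animal is not stated, so the p-values reflect the spread between these libraries alone.

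Each collagen protein is built from 3 chains wound around each other, either copies of 1 chain or products of different genes. Fibrillar collagens form the banded fibrils of bone, skin and vessel walls, fibril-associated collagens sit on the surface of those fibrils, and the type IV network holds basement membranes together. In bone marrow, collagens are made mainly by stromal, bone-lining and vessel-associated cells, which are a small share of marrow cells, and some chains are also transcribed in blood cells.

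Reads assigned to genes ranged from 29435651 to 37722325 per library, so 10 reads correspond to well under 1 CPM (a gene's reads relative to its library's TMM-adjusted size). Stag2 itself stood at 169, 186 and 183 CPM in the Stag2KO libraries and at 338, 328 and 324 CPM in the Stag2WT libraries (log2 fold change -0.88, SE 0.06, adjusted p = 0.000278). The share of reads outside annotated genes was 11.1% to 12.8% in Stag2KO and 8.81% to 10.1% in Stag2WT. Marrow is a mixture of cells, so fewer cells of a type and less RNA per cell cannot be told apart for any value below.

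Most of the collagen genes that could be tested stood at lower levels in Stag2KO. Of the 30 described genes, 29 passed the filter on low counts; 10 were called lower, 2 higher and 17 were not called at an adjusted p under 0.05 (edgeR's quasi-likelihood test, adjusted over 15708 genes). Over all tested genes, 21.2% were called, 10.5% lower and 10.7% higher. The median log2 fold change of the 29 genes was -0.80, against 0.01 over all tested genes, and 23 of the 29 had a fold change below 0, as did 49.3% of all tested genes. All 3 Stag2KO values lay below all 3 Stag2WT values for 16 of the 29 and above them for 2, where these shares were 21.2% and 22.2% over all tested genes. Col14a1, Col19a1 and Col6a5 reached 10 reads in the libraries of 1 group only, so they passed the filter through the group where they are high. Without them, 8 of 26 were lower and 1 higher. The median, the fold changes below 0 and the groups without overlap given above include them. Of the 29 tested collagen genes, 9 were called and lower by more than 2-fold, against 3.72% of all tested genes. Only 1 (Col6a5) was called and higher by more than 2-fold, against 2.5% of all tested genes. These counts also include Col14a1, Col19a1 and Col6a5, which passed the filter through 1 group only. The calls of Col14a1, Col19a1, Col6a1, Col6a2 and Col6a5 held whichever library was removed, and the other 7 were each lost on removal of at least 1 of the 6 libraries. Of the genes whose calls held, only Col6a1 and Col6a2 reached 10 reads in libraries of both groups. When the share outside annotated genes entered the fit as a covariate, an alternative chosen after the data were seen, Col14a1 alone among collagen genes was called.

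**Figure D1:**
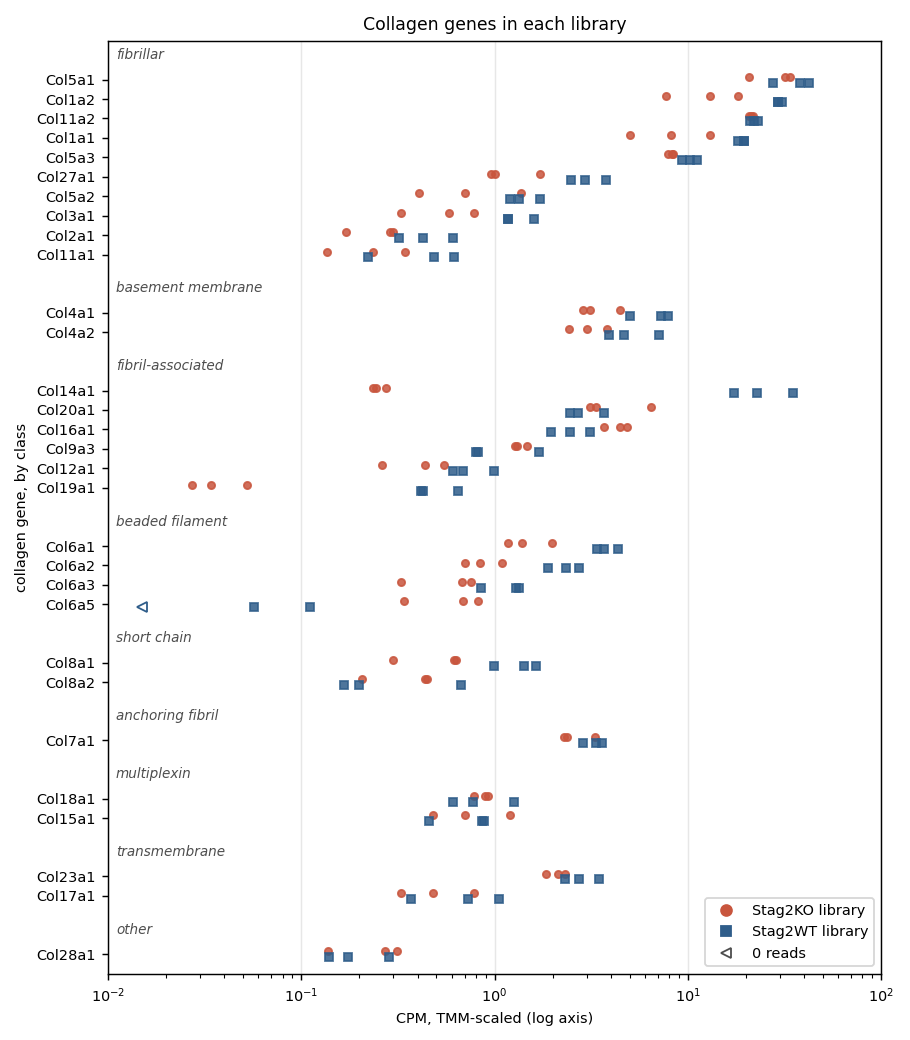
Level of each described collagen gene in each library, in CPM on a log axis, grouped by collagen class; each filled point is 1 library, the colours give the genotype, and the open triangle at the left edge marks a library with 0 reads. Col14a1 sits at 0.236 to 0.274 CPM in the Stag2KO libraries and at 17.3 to 34.9 CPM in the Stag2WT libraries, while the points of Col11a2 fall on top of each other at 20.8 to 23.1 CPM.

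**Figure D2:**
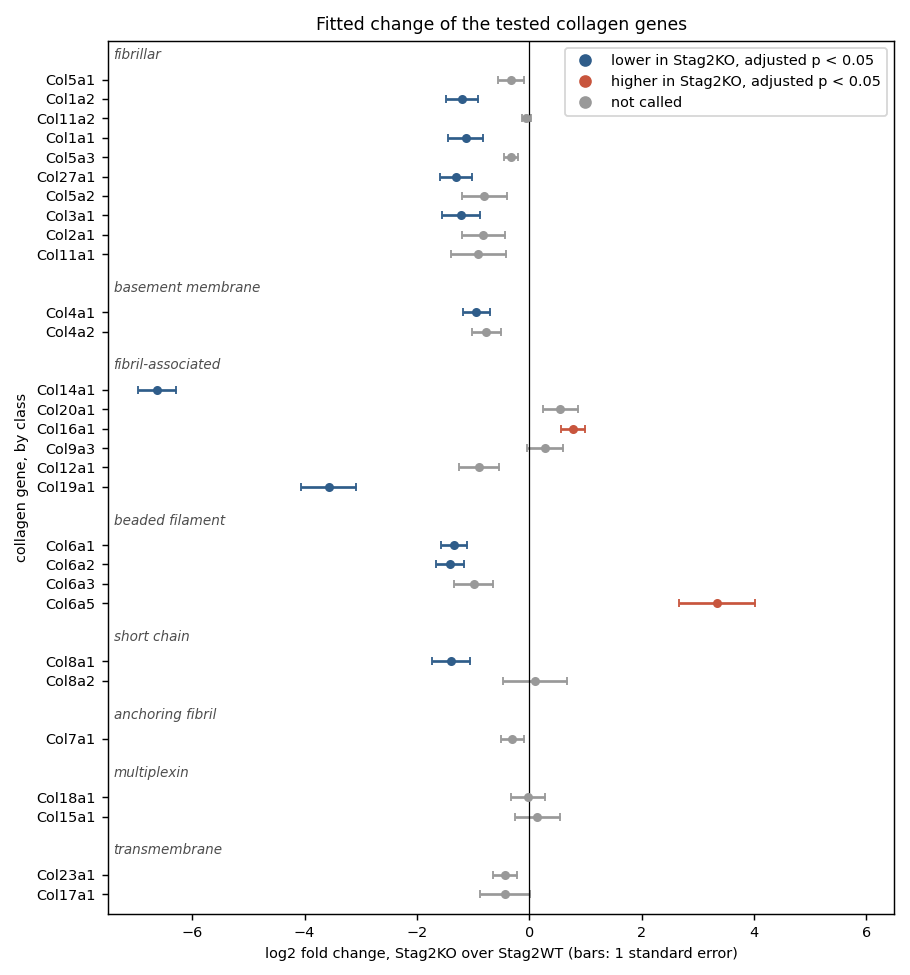
Fitted log2 fold change (Stag2KO over Stag2WT) of the 29 tested collagen genes by class, with bars of 1 standard error; colours mark genes called lower, called higher or not called. The 10 called lower run from -6.62 (Col14a1) to -0.94 (Col4a1), and the 2 called higher are Col16a1 (0.78) and Col6a5 (3.34).

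By class, 4 of 10 tested fibrillar genes, 1 of 2 basement membrane genes and 2 of 6 fibril-associated genes were lower. Both of these fibril-associated genes, Col14a1 and Col19a1, passed the filter through the Stag2WT libraries alone. No other fibril-associated gene was called lower, and Col16a1 was called higher. Among the remaining classes, 2 of 4 beaded filament genes and 1 of 2 short chain genes were lower, and none of the 5 others tested. The beaded filament gene Col6a5, which passed the filter through the Stag2KO libraries alone, was called higher. Summed fibrillar reads stood at 84.4, 76.4 and 88.2 CPM in Stag2KO and at 125.9, 127 and 118 CPM in Stag2WT, so the Stag2KO mean was 67.1% of the Stag2WT mean. Summed basement membrane genes stood at 5.89, 6.58 and 8.67 CPM against 12.3, 9.36 and 15.4 CPM (57.0%). In both classes the libraries of the 2 groups did not overlap. Fibril-associated genes summed to 9.14, 9.77 and 13.4 CPM against 26.4, 29.5 and 43.4 CPM (32.6%). That difference rested on 1 gene: without Col14a1 the sums were 8.87, 9.52 and 13.2 CPM against 9.06, 6.62 and 8.45 CPM, a ratio of 131%, and the groups overlapped.

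**Figure D3:**
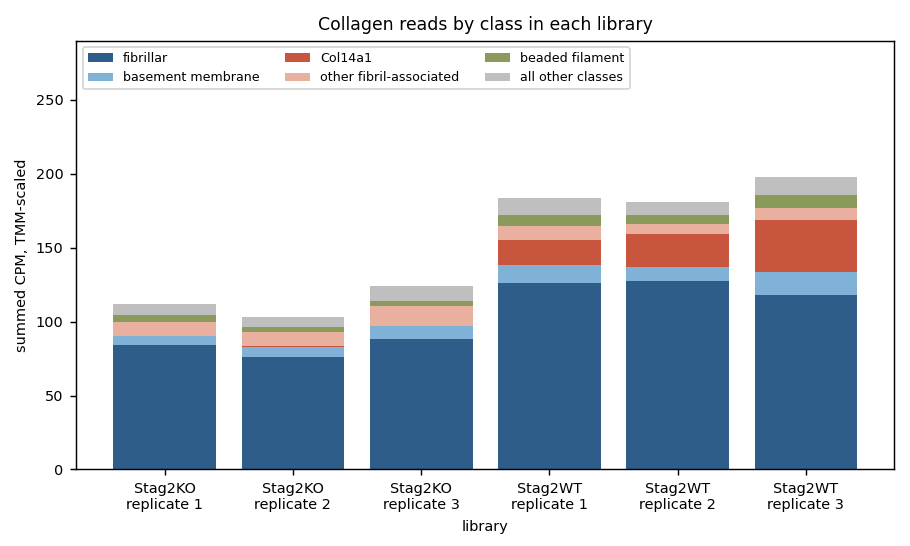
Summed level of the collagen genes in each library, in CPM; each stacked bar is 1 library, the colours are the collagen classes, and Col14a1 is drawn apart from the other fibril-associated genes. The fibrillar share of each bar is 76.4 to 88.2 CPM in Stag2KO and 118 to 127 CPM in Stag2WT, and the Col14a1 share is too small to see in Stag2KO.

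The fibril-associated genes held the most extreme change of the family. Col14a1 encodes the chain of type XIV collagen, which binds to fibrils of type I collagen and is made in skin, tendon and other connective tissues. It held 8, 9 and 9 reads in the Stag2KO libraries and 622, 801 and 1194 reads in the Stag2WT libraries, or 0.274, 0.245 and 0.236 CPM against 17.3, 22.9 and 34.9 CPM. The Stag2KO libraries averaged 0.251 ± 0.02 CPM and the Stag2WT libraries 25.02 ± 9.01 CPM (SD, n = 3 each), with no overlap. At 8, 9 and 9 reads the Stag2KO SD does not measure how alike those libraries are, so the spreads of the groups cannot be compared. On the log2 scale Col14a1 changed by -6.62 (SE 0.34, adjusted p = 0.000125). The ratio of Stag2WT to Stag2KO reads, scaled for library size, was 99.6, with an exact 95% interval of 67.8 to 153 for counting error alone; PCR copies of a molecule are counted as separate reads.

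In the Stag2WT libraries Col14a1 took 9.42%, 12.6% and 17.7% of all collagen reads, and in the Stag2KO libraries 0.245%, 0.237% and 0.19%. On the scale of CPM per kb of exon, where genes can be compared, the Stag2WT level of Col14a1 (3.87) lay between those of Col5a1 (4.29) and Col11a2 (3.49), and only Col1a2 (5.55) and Col5a1 were higher among collagen genes. In Stag2KO it was 0.0389 CPM per kb. Per read of Col1a1, the Stag2WT libraries held 0.954, 1.17 and 1.79 reads of Col14a1 and the Stag2KO libraries 0.0212, 0.0486 and 0.0288, so the fall of Col14a1 went far beyond that of the type I chains in every Stag2KO library.

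Col19a1, the chain of type XIX collagen, known from basement membrane zones of muscle and nerve, fell at very low counts. It held 1, 1 and 2 reads in Stag2KO and 15, 15 and 22 reads in Stag2WT, a scaled ratio of 12.9 (exact 95% counting interval 4.74 to 49.0; log2 fold change -3.57, SE 0.49, adjusted p = 0.00287). Its chromosomal neighbour Col9a1, a type IX chain of cartilage, had 0 reads in all 6 libraries.

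Col16a1 moved the other way. Its product, type XVI collagen, is a minor fibril- and basement membrane-linked chain. It stood at 3.66, 4.44 and 4.82 CPM in Stag2KO and at 2.45, 1.97 and 3.10 CPM in Stag2WT, with no overlap, and rose by a log2 fold change of 0.78 (SE 0.21, adjusted p = 0.0349). That call depended on single libraries: it was lost on removal of Stag2KO replicate 2, Stag2KO replicate 3, Stag2WT replicate 1 or Stag2WT replicate 2 (adjusted p up to 0.102). With the share outside annotated genes as a covariate the log2 fold change of Col16a1 was 0.39 (adjusted p = 0.757).

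The other fibril-associated genes did not pass the test. Col20a1, the type XX chain, stood at 3.12, 3.35 and 6.44 CPM in Stag2KO and 3.67, 2.45 and 2.69 CPM in Stag2WT (log2 fold change 0.55, SE 0.31, adjusted p = 0.23), with Stag2KO replicate 3 apart from the rest. Col12a1, the closest relative of Col14a1 in structure and like it a partner of type I fibrils, stood at 0.548, 0.435 and 0.262 CPM against 0.612, 0.685 and 0.994 CPM (log2 fold change -0.89, SE 0.35, adjusted p = 0.103). The groups did not overlap for Col12a1, but its distance was a fraction of that of Col14a1. Col9a3, a type IX chain, stood at 1.30, 1.28 and 1.47 CPM against 1.70, 0.799 and 0.819 CPM (log2 fold change 0.29, adjusted p = 0.549); its exons overlap those of Tcfl5 on the opposite strand, and without a known strand setting their reads cannot be told apart.

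Among the fibrillar genes, the 2 chains of type I collagen, the main protein of bone matrix, fell side by side. Col1a1 held 378, 185 and 312 reads in Stag2KO and 652, 685 and 667 in Stag2WT, or 12.9, 5.03 and 8.17 CPM against 18.1, 19.5 and 19.5 CPM. Col1a2 stood at 18.1, 7.73 and 13.04 CPM against 29.4, 29.1 and 30.6 CPM. The Stag2WT libraries were nearly equal for both genes, whereas the Stag2KO libraries spread widely, with replicate 2 lowest and replicate 1 highest. The log2 fold changes were -1.13 for Col1a1 (SE 0.31, adjusted p = 0.0463) and -1.20 for Col1a2 (SE 0.28, adjusted p = 0.0308). Both calls were lost without Stag2KO replicate 3 and without any 1 of the Stag2WT libraries, with adjusted p up to 0.139 for Col1a1 and 0.0989 for Col1a2, and in a fit with no filter on low counts (0.111 and 0.0819). With the share outside annotated genes as a covariate the log2 fold changes were -0.29 (Col1a1, adjusted p = 0.855) and -0.41 (Col1a2, adjusted p = 0.747).

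Because type I collagen joins the products of Col1a1 and Col1a2, the promoter window of Col1a2 is shown to let a reader see the elements near its start. It is the 300 bases from 250 before to 50 after the RefSeq start (GRCm38.p6, chr6:4505368-4505667, plus strand), with the letters CCAAT and GGGCGG on either strand in capitals; the same window of Col16a1 (chr4:130047590-130047889, plus strand), the fibril-linked gene that rose, follows for comparison.
Col1a2: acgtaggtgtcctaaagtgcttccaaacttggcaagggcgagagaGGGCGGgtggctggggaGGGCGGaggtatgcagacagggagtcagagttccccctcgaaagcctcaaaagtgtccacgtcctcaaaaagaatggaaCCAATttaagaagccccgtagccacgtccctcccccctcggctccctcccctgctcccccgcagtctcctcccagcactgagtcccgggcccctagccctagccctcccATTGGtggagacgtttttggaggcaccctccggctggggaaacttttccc
Col16a1: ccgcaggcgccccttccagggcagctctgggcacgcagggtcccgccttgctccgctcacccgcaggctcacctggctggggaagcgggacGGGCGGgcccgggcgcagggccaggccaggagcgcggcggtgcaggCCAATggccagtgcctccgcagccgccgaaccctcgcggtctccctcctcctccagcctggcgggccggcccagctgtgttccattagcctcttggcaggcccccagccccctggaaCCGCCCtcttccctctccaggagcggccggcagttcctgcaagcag
The Col1a2 window held 2 CCAAT and 2 GGGCGG matches, and the Col16a1 window 1 CCAAT and 2 GGGCGG matches. Such matches are common: CCAAT occurred in 37.4% of 32851 RefSeq mouse promoter windows of this length and in 9 of 26 windows of the described collagen genes. GGGCGG occurred in 35.7% of all windows and in 17 of the 26. TATAAA was found in 13.6% of all windows and 3 of the 26, and GAGGAA, a core bound by ETS factors such as PU.1, in 28.3% and 6 of the 26. All motifs were searched on both strands, and a match is a description of letters, not a site in use.

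Col3a1, the type III chain that forms thin reticular fibrils in marrow and vessel walls, fell at low levels. It stood at 0.582, 0.327 and 0.785 CPM in Stag2KO and at 1.17, 1.17 and 1.61 CPM in Stag2WT (log2 fold change -1.21, SE 0.34, adjusted p = 0.0368); Stag2KO replicate 2 was again the lowest library. The gene model Gm47302 shares exon bases with Col3a1 on the same strand. Removing 1 library at a time gave adjusted p of 0.0304 to 0.101, and the call was kept only on removal of Stag2KO replicate 3. Col27a1, a fibrillar chain of cartilage and developing bone, stood at 0.959, 1.01 and 1.73 CPM against 3.75, 2.48 and 2.95 CPM and fell by a log2 fold change of 1.30 (SE 0.28, adjusted p = 0.0163). Its groups did not overlap, and its call was lost only without Stag2KO replicate 2 (0.0538).

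Type V chains, which start fibrils and set their width, were not called; Col5a1 (3.42 CPM per kb in Stag2KO, 4.29 in Stag2WT) and Col5a3 (1.33 and 1.68) were among the more abundant members per length. Col5a1 stood at 20.7, 31.8 and 33.8 CPM in Stag2KO and at 38.3, 42.5 and 27.5 CPM in Stag2WT, so the groups overlapped (log2 fold change -0.33, SE 0.23, adjusted p = 0.341). Col5a3 stood at 8.36, 7.86 and 8.27 CPM against 11.2, 9.33 and 10.2 CPM, without overlap (-0.33, SE 0.12, adjusted p = 0.0853). Col5a2, which lies next to Col3a1 on the chromosome, stood at 1.37, 0.408 and 0.707 CPM against 1.20, 1.34 and 1.73 CPM (-0.80, SE 0.40, adjusted p = 0.183), with Stag2KO replicate 1 among the Stag2WT values; without that library it was called lower (-1.34, adjusted p = 0.0418).

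Col11a2, a type XI chain best known from cartilage, was the steadiest member at 20.8, 21.8 and 21.2 CPM in Stag2KO and 21.9, 20.9 and 23.1 CPM in Stag2WT (log2 fold change -0.05, SE 0.08, adjusted p = 0.697). The partner chain gene Col11a1 held 0.342, 0.136 and 0.236 CPM against 0.222, 0.485 and 0.614 CPM (-0.90, SE 0.49, adjusted p = 0.214). Col2a1, the main fibrillar chain of cartilage, stood at 0.171, 0.299 and 0.288 CPM against 0.612, 0.428 and 0.322 CPM (-0.81, SE 0.39, adjusted p = 0.162). So the level of Col11a2 was not matched by the chains it pairs with in cartilage. Col5a1, Col11a2, Col1a1, Col1a2 and Col5a3 together held at least 93.9% of fibrillar reads in every library, and without Col5a1, whose exons overlap those of 2810430I11Rik and Gm13372 on the opposite strand, the Stag2KO fibrillar mean was 61.8% of the Stag2WT mean.

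The basement membrane class was represented by the ubiquitous type IV pair. Col4a1 stood at 3.12, 2.88 and 4.45 CPM in Stag2KO and at 7.23, 4.99 and 7.87 CPM in Stag2WT, and Col4a2 at 2.43, 2.99 and 3.8 CPM against 4.67, 3.91 and 7.11 CPM. Neither gene's groups overlapped, and in both Stag2WT replicate 2 was the nearest to the Stag2KO libraries. Col4a1 fell by a log2 fold change of 0.94 (SE 0.23, adjusted p = 0.0264), a call lost on removal of replicate 1 or 2 of Stag2KO, or of replicate 1 or 3 of Stag2WT (up to 0.0817). Col4a2 had a log2 fold change of -0.76 (SE 0.26) and was not called by edgeR (adjusted p = 0.0726), although DESeq2 called it (0.0314). The other type IV genes, Col4a3, Col4a4, Col4a5 and Col4a6, lay below the read minimum; Col4a5 was the nearest to it, with 7, 17 and 8 reads in Stag2KO and 10, 5 and 5 in Stag2WT.

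Col4a1 and Col4a2 lie head to head and are transcribed in opposite directions, so their promoter windows are shown together. The Col4a1 window (chr8:11312777-11313076, minus strand) and the Col4a2 window (chr8:11312555-11312854, plus strand, both RefSeq GRCm38.p6) have 78 bases in common, printed in capitals; each is read on its own strand, so the capitals of one are the reverse complement of the other.
Col4a1: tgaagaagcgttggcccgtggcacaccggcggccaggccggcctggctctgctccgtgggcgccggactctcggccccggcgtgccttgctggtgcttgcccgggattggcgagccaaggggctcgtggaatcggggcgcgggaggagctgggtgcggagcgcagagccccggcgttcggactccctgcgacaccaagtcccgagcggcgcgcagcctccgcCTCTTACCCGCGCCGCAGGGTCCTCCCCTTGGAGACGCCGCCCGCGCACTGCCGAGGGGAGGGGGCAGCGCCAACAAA
Col4a2: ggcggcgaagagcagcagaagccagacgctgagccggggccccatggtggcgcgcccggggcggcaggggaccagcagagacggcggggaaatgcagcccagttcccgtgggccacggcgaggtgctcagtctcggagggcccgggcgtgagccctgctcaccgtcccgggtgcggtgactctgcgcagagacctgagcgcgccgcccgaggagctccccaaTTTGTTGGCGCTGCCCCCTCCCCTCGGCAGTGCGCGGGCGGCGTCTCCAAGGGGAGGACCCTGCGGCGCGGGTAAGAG
The ratio of Col4a2 to Col4a1 reads was 0.78, 1.04 and 0.853 in Stag2KO and 0.646, 0.783 and 0.903 in Stag2WT, with overlapping groups. The exons of the 2 genes overlap by 22 bases on opposite strands in the GENCODE M21 annotation, so a few reads may be shared or left uncounted.

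Type VI collagen forms beaded microfilaments around cells. Col6a1 stood at 1.99, 1.17 and 1.39 CPM in Stag2KO and at 3.70, 3.40 and 4.33 CPM in Stag2WT, and fell by a log2 fold change of 1.34 (SE 0.23, adjusted p = 0.00712). Its neighbour Col6a2 stood at 1.1, 0.707 and 0.838 CPM against 2.34, 1.88 and 2.75 CPM and fell by 1.41 (SE 0.25, adjusted p = 0.00755). The Stag2KO values of both genes were all below the lowest Stag2WT value, and both calls held without any 1 library (adjusted p up to 0.0252 and 0.0274). Col6a3, the third chain of the usual trimer, stood at 0.753, 0.327 and 0.681 CPM against 1.33, 0.856 and 1.29 CPM, also without overlap, and was not called (-0.99, SE 0.35, adjusted p = 0.0758).

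Col6a5, an alternative to the third chain, was the exception. It held 20, 30 and 13 reads in Stag2KO and 4, 2 and 0 reads in Stag2WT, a scaled ratio of Stag2KO to Stag2WT of 10.6 (exact 95% counting interval 4.61 to 30.0; log2 fold change 3.34, SE 0.68, adjusted p = 0.0123). Without Stag2WT replicate 1 the log2 fold change was 4.24, and DESeq2 gave no adjusted p for this gene. The neighbouring Col6a4 lay below the read minimum and outside the test, with 9, 11 and 1 reads in Stag2KO against 1, 0 and 0 in Stag2WT, a scaled ratio of 21.2 with a wide counting interval of 3.41 to 877. In the fit with no filter on low counts it was called higher (adjusted p = 0.0319). Col6a6, on the other side of Col6a5, held 2, 2 and 4 reads against 1, 0 and 3. Reads for Col6a4 and Col6a5 thus came mostly from the Stag2KO libraries, at levels where a library holds 30 reads at most. For Col6a4 the groups overlapped, as Stag2KO replicate 3 held 1 read. Exons of Col6a4 overlap those of Gm47575 and Gm36993 on the opposite strand, and without a known strand setting such reads cannot be told apart.

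Among the remaining classes, Col8a1, a short chain collagen of vessel walls, fell. It stood at 0.616, 0.299 and 0.628 CPM in Stag2KO and at 1.42, 0.999 and 1.64 CPM in Stag2WT (log2 fold change -1.39, SE 0.34, adjusted p = 0.0239). The call was lost on removal of Stag2KO replicate 2 or of either Stag2WT replicate 1 or 3 (up to 0.0683). Its partner Col8a2 stood at 0.205, 0.435 and 0.445 CPM against 0.167, 0.2 and 0.673 CPM, with overlap (0.10, adjusted p = 0.911; 0.99 without Stag2WT replicate 3, adjusted p = 0.205).

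Neither the anchoring fibril gene Col7a1, at 2.29, 2.37 and 3.30 CPM against 3.36, 2.85 and 3.60 CPM (-0.30, adjusted p = 0.321), nor the multiplexins were called. The multiplexins carry heparan or chondroitin sulfate chains in vessel basement membranes. Col15a1 stood at 0.479, 0.707 and 1.20 CPM against 0.862, 0.457 and 0.877 CPM (0.14, adjusted p = 0.819), and Col18a1 at 0.890, 0.925 and 0.785 CPM against 0.612, 0.770 and 1.26 CPM (-0.02, adjusted p = 0.968). Both overlapped between the groups.

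The transmembrane collagens Col17a1, a hemidesmosome protein of epithelia, and Col23a1 were not called either. Col17a1 stood at 0.479, 0.327 and 0.785 CPM in Stag2KO and 1.06, 0.371 and 0.731 CPM in Stag2WT (-0.43, adjusted p = 0.521). Col23a1 stood at 2.12, 1.85 and 2.30 CPM against 3.48, 2.31 and 2.72 CPM (-0.44, adjusted p = 0.17). Only Col23a1 had groups without overlap. Col28a1, just above the read minimum, was described but not tested, at 0.137, 0.272 and 0.314 CPM against 0.139, 0.285 and 0.175 CPM. The 13 genes below the minimum never exceeded 17 reads in a library. Besides the type IV, type VI and type IX genes named above they were Col9a2, Col10a1, Col13a1, Col22a1, Col24a1 and Col25a1. Col25a1 held 1, 1 and 6 reads in Stag2KO and 9, 8 and 11 in Stag2WT, and Col22a1 5, 0 and 3 against 7, 10 and 7; neither was called in the fit with no filter (adjusted p = 0.0829 and 0.201).

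The ratios taken between chains built into the same protein overlapped between the groups, while the levels of most of these chains did not. No ratio was taken for Col6a5, the alternative chain of type VI, and its reads went the other way from those of Col6a1. Col6a5 held 20, 30 and 13 reads in Stag2KO and 4, 2 and 0 in Stag2WT. Col6a1 held 58, 43 and 53 reads in Stag2KO and 133, 119 and 148 in Stag2WT. Reads of Col1a2 per read of Col1a1 were 1.40, 1.54 and 1.60 in Stag2KO and 1.62, 1.49 and 1.57 in Stag2WT, although Col1a1 itself ranged from 5.03 to 19.5 CPM. Reads of Col6a2 per read of Col6a1 were 0.552, 0.605 and 0.604 against 0.632, 0.555 and 0.635, and reads of Col6a3 per read of Col6a1 were 0.379, 0.279 and 0.491 against 0.361, 0.252 and 0.297. Col3a1 per Col1a1 also overlapped, at 0.045, 0.0649 and 0.0962 against 0.0644, 0.0599 and 0.0825. These ratios are descriptions of 6 libraries and were not tested.

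**Figure D4:**
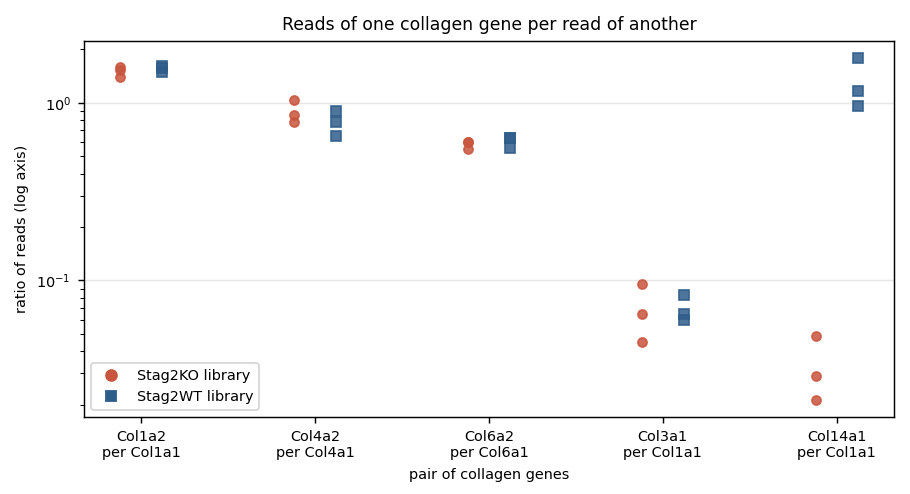
Ratio of reads between pairs of collagen genes in each library on a log axis, Stag2KO and Stag2WT side by side; each point is 1 library. The type I, III, IV and VI pairs overlap between the genotypes, while Col14a1 per Col1a1 runs from 0.0212 to 0.0486 in Stag2KO and from 0.954 to 1.79 in Stag2WT.

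The Stag2KO libraries were not uniform across the family. Over the 30 described genes, Stag2KO replicate 2 was the lowest of the 6 libraries for 14 genes, replicate 1 for 7 and replicate 3 for 2. Stag2WT replicate 3 was the highest for 16 genes, replicate 1 for 7 and replicate 2 for 2. How often each library is lowest or highest over all tested genes was not counted. The ranks are therefore not shown to be particular to collagen genes.

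Genes that modify, cut, bind and break down collagen were taken from 6 lists with 118 genes in the table, of which 86 were tested; 25 were lower, 9 higher and 52 not called, with a median log2 fold change of -0.32. That is 39.5% called, against 21.2% of all tested genes (10.5% lower and 10.7% higher). The counts below are to be read against those shares. The lists were chosen with earlier results of these data known, so the 39.5% is a description and not an independent test. Of the enzymes and chaperones that mature procollagen, 3 of 22 tested were lower, 3 higher and 16 not called, with a median of 0.03; the 27.3% called lay near the share over all tested genes. Serpinh1, the collagen chaperone HSP47, stood at 3.25, 3.46 and 4.95 CPM in Stag2KO against 7.06, 8.76 and 7.75 CPM in Stag2WT and fell by 1.01 on the log2 scale (SE 0.19, adjusted p = 0.00976). P4ha2, a prolyl hydroxylase subunit, fell by 1.91 (adjusted p = 0.0167) and the lysyl hydroxylase gene Plod1 by 0.43 (0.0269), while Tmem38b, an ion channel of the endoplasmic reticulum, rose by 0.58 (0.0085). The P4ha2 call was lost without Stag2KO replicate 2, and that of Plod1 without Stag2KO replicate 2 or 3 or Stag2WT replicate 1 or 3.

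Of 11 tested genes for procollagen cleavage and crosslinking, 5 were lower, 1 higher and 5 not called (median -0.17). Adamts2, which removes the amino-terminal propeptide of fibrillar procollagens, stood at 0.685, 0.789 and 1.47 CPM against 2.59, 2.85 and 3.63 CPM (log2 fold change -1.61, SE 0.31, adjusted p = 0.00992). The transglutaminase genes F13a1 (-1.01, adjusted p = 0.00057) and Tgm2 (-0.82, 0.00413) fell as well. Loxl2, a lysyl oxidase that crosslinks collagen, especially type IV, rose, at 3.22, 4.05 and 2.51 CPM against 0.89, 0.828 and 1.35 CPM (1.67, SE 0.27, adjusted p = 0.00523).

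Among the receptors, 2 of 10 tested were lower, 2 higher and 6 not called (median -0.53). Itga1, the alpha subunit of an integrin that binds types I and IV collagen, stood at 1.47, 2.39 and 2.57 CPM in Stag2KO and at 14.96, 14.95 and 19.8 CPM in Stag2WT (-2.94, SE 0.23, adjusted p = 0.000404). Ddr2, a receptor tyrosine kinase for fibrillar collagen, fell by 0.87 (adjusted p = 0.032). Both receptors that rose are made by blood cells: Gpr56, an adhesion receptor that binds type III collagen, by 0.84 (0.0013), and Lair1, an inhibitory collagen receptor of leukocytes, by 0.49 (0.0334). Removing 1 library at a time ended the call of Ddr2 in 5 fits and that of Lair1 in 3.

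The partners on the fibril surface had the lowest median of the 6 lists (-0.94), with 7 of 15 tested lower, 0 higher and 8 not called. Vcan, the large proteoglycan versican, stood at 0.548, 0.735 and 0.314 CPM against 6.87, 7.25 and 12.3 CPM (-4.05, SE 0.36, adjusted p = 0.000755). The small proteoglycan gene Bgn stood at 14.1, 9.2 and 11.7 CPM against 23.4, 22.5 and 23.8 CPM (-0.996, adjusted p = 0.004). The adaptor gene Matn2 (-1.08, 0.00958) and the matrix glycoprotein gene Tnc (-1.05, 0.00994) fell too.

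The basement membrane partners of type IV collagen went both ways, with 4 of 14 lower, 2 higher and 8 not called (median -0.45). The laminin beta chain gene Lamb1 stood at 0.308, 0.626 and 0.89 CPM in Stag2KO against 8.93, 3.88 and 5.44 CPM in Stag2WT (-3.29, SE 0.43, adjusted p = 0.00329). Lamc1, the gamma chain with which it is assembled, stood at 18.3, 23.4 and 24.1 CPM against 12.4, 11.5 and 13.6 CPM and rose by 0.81 (SE 0.13, adjusted p = 0.00496). Nid2, a linker between laminin and type IV collagen, fell by 1.84 (0.00301) and the nephronectin gene Npnt by 1.77 (0.0119).

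Of the genes for collagen breakdown, 4 of 14 were lower, 1 higher and 9 not called (median -0.41). The membrane-bound collagenase gene Mmp14 stood at 6.54, 12.03 and 8.4 CPM against 20.6, 17.4 and 16.99 CPM (-1.02, SE 0.21, adjusted p = 0.0153). The collagenase gene Mmp13 (-1.06, 0.0316), the inhibitor gene Timp2 (-0.58, 0.0187) and the lysosomal protease gene Ctsb (-0.51, 0.0268) fell. Leaving out 1 library ended the call of Mmp13 in 5 of 6 fits, of Ctsb in 4 and of Timp2 without Stag2KO replicate 2.

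**Figure D5:**
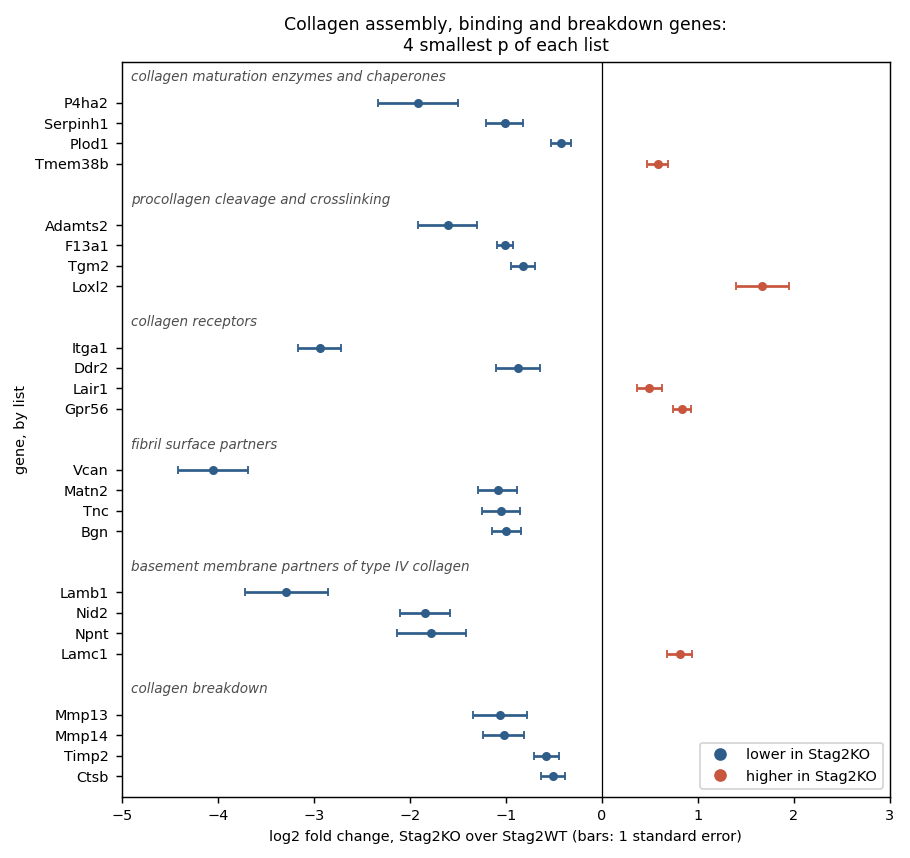
Fitted log2 fold change (Stag2KO over Stag2WT) of the 4 genes with the smallest p of each of the 6 lists of collagen-related genes, with bars of 1 standard error. Vcan (-4.05), Lamb1 (-3.29) and Itga1 (-2.94) lie farthest to the left, and Loxl2 (1.67) farthest to the right.

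Markers of several collagen-producing cell types differed between the same libraries. Mesenchymal stroma markers summed to 91.8 to 119.9 CPM in Stag2KO and 198 to 222 CPM in Stag2WT, and 8 of 12 tested were lower and 1 higher. Cxcl12, the stromal chemokine that retains stem cells, stood at 57.3, 32.8 and 50.1 CPM against 110.0, 108 and 116 CPM (-1.25, SE 0.19, adjusted p = 0.00827), and Lpl fell by 1.78 (0.00561). Stag2KO replicate 2 was the lowest library for Cxcl12. Without Cxcl12 the mesenchymal stroma sums were 59.0 to 62.6 CPM in Stag2KO against 87.8 to 105 CPM in Stag2WT. The summed remaining markers thus differed little among the Stag2KO libraries.

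Osteoblast and osteocyte markers summed to 139 to 196 CPM against 159.7 to 193 CPM, most of it Runx2 (0.11, adjusted p = 0.622), which blood cells also transcribe. Without Runx2 the sums were 15.1 to 18.6 against 35.4 to 53.2 CPM; 5 of 11 tested members were lower, Spp1 among them (-1.24, 0.0199), 0 were higher, and Sost was at 0 reads in all libraries. Smooth muscle and pericyte markers summed to 3.87 to 5.58 against 5.31 to 7.12 CPM, with 1 of 4 lower, Mcam (-1.72, 0.018), while Tagln was not called (-0.18, 0.569). These sums overlapped, but those without Tagln did not, at 1.55 to 2.51 against 2.88 to 3.71 CPM. Of the 8 listed smooth muscle and pericyte markers, 3 stayed under 10 reads in every library.

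Macrophage markers summed to 410.4 to 578 CPM against 1485 to 1574 CPM, with 13 of 14 lower, including Vcam1 (-1.36, 0.00154) and Hmox1 (-1.29, 0.0213). Endothelial markers summed to 274 to 294 against 275 to 309 CPM, with 2 of 14 lower and 5 higher; without Pecam1 they summed to 167 to 171 against 189 to 206 CPM, with no overlap. Eng fell by 0.55 (0.00197) and Pecam1 rose by 0.30 (0.0369).

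Some marker sums were instead higher in Stag2KO. Fibroblast and tendon markers summed to 308 to 336 against 229 to 268 CPM, mostly through Cd34 (0.53, adjusted p = 0.0222), which progenitors carry too, and Pi16 (1.04, 0.00231); 2 of 6 tested were lower and 2 higher, and Tnmd was at 0. Without Cd34 these sums overlapped, at 110.1 to 129 against 99.6 to 126 CPM. Chondrocyte markers summed to 5.58 to 9.21 against 2.83 to 3.89 CPM through Lect1 (2.84, 0.00353), the only 1 of 3 tested that was called; Sox5 was not (0.27, 0.404), and Hapln1 and Ucma were at 0. Schwann cell markers summed to 169 to 175 against 133 to 161 CPM, most of it Mbp, which was not called (adjusted p = 0.988). Without Mbp the sums were 53.2 to 61.0 against 26.6 to 31.6 CPM. Of 5 tested members 1 was lower and 1 higher, Ncam1 (1.32, 0.000506).

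For blood cells, the stem and progenitor list summed to 8780.5 to 9627 against 5917 to 7128 CPM, with 7 of 12 higher, Mpo (0.58, 0.0126) the most abundant and Myb not called (0.20, 0.0989). Megakaryocyte markers summed to 503 to 627 against 391 to 497 CPM, with 4 of 10 higher, among them Itgb3 (0.66, 0.007) and Itga2b (0.40, 0.0426). The megakaryocyte sums overlapped without Itga2b, at 286 to 344 against 212 to 302 CPM. Markers of mature lineages overlapped, at 1083 to 1218 against 998 to 1414 CPM. Of these, 4 of 10 were lower and 0 higher, with a median log2 fold change of -0.92. The most abundant members, Ptprc (0.13, 0.481) and Itgam (0.56, 0.0535), were not called. Itgam was called higher by DESeq2 (adjusted p = 0.00294), limma-voom (0.0421) and the fit without robust dispersion (0.0437). It was also called higher without Stag2KO replicate 2 (0.0378) or Stag2WT replicate 1 (0.0167). Removing 1 library at a time ended the calls of Cd34, Pecam1 and Itga2b in 4 of 6 fits each (adjusted p up to 0.0881, 0.109 and 0.143), of Hmox1 in 3, of Spp1 and Mcam in 2 and of Mpo in 1. How much of any collagen difference goes with the shares of these cell types was not tested.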

How the data were processed

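RNA-seq of 6 libraries was analysed. The authors deposited 1 table of raw counts per gene symbol; STAR 2.4, HTSeq 0.6.1, DESeq2 and build mm9 are named in the submitters' processing notes. For annotation, kit and strand, no statement was found in the labels, so reads of overlapping genes cannot be told apart. Genotype came from the labels; replicate numbers follow accession order and only name samples. Totals that name no gene were left out: 8.81% to 12.8% of all tabulated reads of a library lay outside annotated genes, 2.02% to 2.2% were ambiguous and 23.4% to 28.6% aligned to several places.

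The test was that of edgeR 4.0.16 in R 4.3.3 (filterByExpr, TMM, a robust quasi-likelihood fit on genotype alone, Benjamini-Hochberg adjustment over 15708 genes, calls at an adjusted p under 0.05), after the fit had been tested on simulated data. Standard errors come from the same fit. Libraries of a group differed beyond counting noise (chi-square per degree of freedom 20.8 to 43.3). Levels per kb use exon lengths of GENCODE M21 (GRCm38), which is not the authors' build. Promoter windows are RefSeq's; 24 of the 30 described genes had one.

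Members and lists were chosen with earlier results of these data known. The text names Stag2, every described collagen gene, the 4 genes with the smallest p of each pathway list and the 2 tested genes with the highest mean of each marker list. The alternatives comprised median-ratio size factors, no filter, a filter of 5 CPM, DESeq2 1.42.0, limma-voom (limma 3.58.1), no robust dispersion, other read minimums, each library left out, and a covariate.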

Additional observations from a re-analysis of the deposited data

How the results depend on the processing

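Median-ratio size factors, limma-voom and a fit without robust dispersion gave the same collagen counts as reported, 10 lower and 2 higher. DESeq2 gave 10 lower and 1 higher: it called Col4a2 and gave no adjusted p for Col19a1 and Col6a5. With at least 5 CPM demanded in 3 libraries, which leaves most of the family untested, 3 collagen genes were lower and 0 higher, and 19 of the collagen-related genes were called in place of 34. With no filter, 8 were lower and 3 higher, the added one being Col6a4. Leaving out 1 library gave 5 to 9 lower and 1 to 2 higher collagen genes, 22 to 33 called collagen-related genes and 1967 to 2548 called genes in all, against 3333. With the share of reads outside annotated genes as a covariate, added after the data were seen, 67 genes were called in all, with 1 collagen gene lower (Col14a1, log2 fold change -7.65, adjusted p = 0.00434), 0 higher and 2 collagen-related genes; Itga2b turned to -0.092 (adjusted p = 0.825). Among other log2 fold changes, the covariate moved Col5a2 (-0.80 to -0.17), Col6a3 (-0.99 to -0.36), Col8a2 (0.10 to -1.5) and Col12a1 (-0.89 to -1.49). It also moved Col16a1 (0.78 to 0.39), Col17a1 (-0.43 to 0.29), Col18a1 (-0.02 to -0.74) and Col19a1 (-3.57 to -4.31). Col4a2 (-0.76 to -1.25), Col9a3 (0.29 to 0.78) and Col20a1 (0.55 to 1.12) grew in size. All of these had adjusted p of 0.123 or more. That share was 2.47 percentage points higher in Stag2KO and cannot be told apart from genotype.

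The log2 ratio of summed fibrillar levels was -0.58 (-0.62 to -0.52 leaving out 1 library, -0.69 without Col5a1). That of basement membrane genes was -0.81 (-0.99 to -0.62), and that of fibril-associated genes -1.62 (-1.81 to -1.37), which turned to 0.39 without Col14a1. With a minimum of 5 or 20 reads, 33 or 24 genes would be described, and 23 with 10 reads in all 6 libraries. No paired analysis was possible because the replicate numbers come from accession order and the labels pair no samples.

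With 3 libraries a group, a fit that leaves 1 out has less power, so calls near the threshold can be lost with little change in fold. Genes at under 1 CPM rest on few reads, and their fold changes carry wide errors.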
